A study of Mus musculus with 28 samples.

Results

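The comparison was between IL-10 macrophages that had engulfed dying conventional CD4+ T cells (Tconv-phagocytic, 4 libraries) and IL-10 macrophages from the co-cultures that had taken up none (non-phagocytic, 4 libraries). These 8 of 28 libraries were chosen by their labels alone, with both staining dyes of the Tconv cells pooled. All were wild-type mouse macrophages grown in culture from bone marrow, and all 8 came from 48 h of culture with the T cells and IL-10 at 50 ng/mL. Per the series text, the T cells had been made apoptotic with ATP/NAD+ and labelled with an antibody against CD4 that carried the dye BV421 or Ax647, and the macrophages were sorted by whether they had engulfed T cells. The Tconv-phagocytic libraries are named here by dye and number: BV421-1, BV421-2, Ax647-1 and Ax647-2. The non-phagocytic libraries are numbered 1 to 4. The other 20 libraries were IL-10 macrophages with uptake of regulatory T cells (Treg-phagocytic, whose titles and library names give different dyes), the same 3 uptake groups under IFN-γ at 50 ng/mL for 48 h, and M0 macrophages without either cytokine, 4 libraries each. The series asks how engulfing either kind of T cell alters polarized macrophages. The labels do not say whether replicates came from separate animals or cultures, so p-values measure only the spread between these libraries, which may be technical. The sort separates cells by what they did, so differences that existed before uptake and differences that followed it cannot be told apart.

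Clearance of apoptotic cells by phagocytes is called efferocytosis. Receptors such as the TAM kinases (Tyro3, Axl, Mertk) bind phosphatidylserine on the dying cell through bridging proteins such as Gas6, and the engulfed cell is broken down in lysosomes. Its cholesterol is handled by efflux genes under the liver X receptors (LXR), and its proteins can be presented on MHC class II. IL-10 is an anti-inflammatory cytokine that acts on macrophages through STAT3.

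Each file holds TPM (each gene's share of the transcripts in a library, corrected for transcript length and scaled to a fixed total). TPM keeps no read total, so the depth is unknown. Between 17348 and 18457 genes were above 0 TPM in the 8 libraries. Log2 values of libraries of the same group correlated at r = 0.989 to 0.992 across genes, and those of different groups at 0.986 to 0.990. The first principal component (24.7% of the variance) separated the groups. Non-phagocytic library 1 had the fewest genes above 0 and stood apart on the second (15.5%). The macrophage label was borne out by its markers: all 16 genes of the macrophage list were above the filter, with summed levels of 35960 to 36550 TPM in the non-phagocytic and 36780 to 37590 TPM in the Tconv-phagocytic libraries. Adgre1 (F4/80) had a mean of 813 ± 22.95 TPM (SD, n = 4) without uptake and 759 ± 12.2 TPM (SD, n = 4) with it, and Csf1r (the CSF1 receptor) 932 ± 23.6 and 881 ± 23.9 TPM (SD, n = 4 each). Neither passed the test, with adjusted p = 0.68 for Adgre1 and 0.95 for Csf1r.

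Macrophages with engulfed Tconv cells differed from non-phagocytic ones in many genes, mostly by little. Vcam1, Axl, Tmem176b, Apoe and the MHC class II genes were higher after sorting for uptake, and Mmp12, Lpl, Ctsl and Mfge8 were lower. Of 11883 genes tested, 834 passed an adjusted p of 0.05 (7.02%), with 573 higher (4.82%) and 261 lower (2.2%). Only 15 of the 834 differed by at least 1 on the log2 scale. In deposited TPM the 4 libraries of one group all lay above the 4 of the other for 2220 genes (18.7%), with the Tconv-phagocytic libraries higher for 438 (3.69%) and lower for 1782 (15%). In unscaled values the median log2 difference of all genes was -0.07, and after scaling it was 0.002. Folds below are on the log2(scaled TPM + 1) scale, whereas levels are TPM as deposited. Without scaling 1188 genes passed, of which 24.2% were higher, against 68.7% of the 834, and 548 genes were called both ways. Without non-phagocytic library 1, 614 genes passed, 435 higher and 179 lower. The lowest counts were 529 without BV421-2 and 535 without non-phagocytic library 3.

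**Figure D1:**
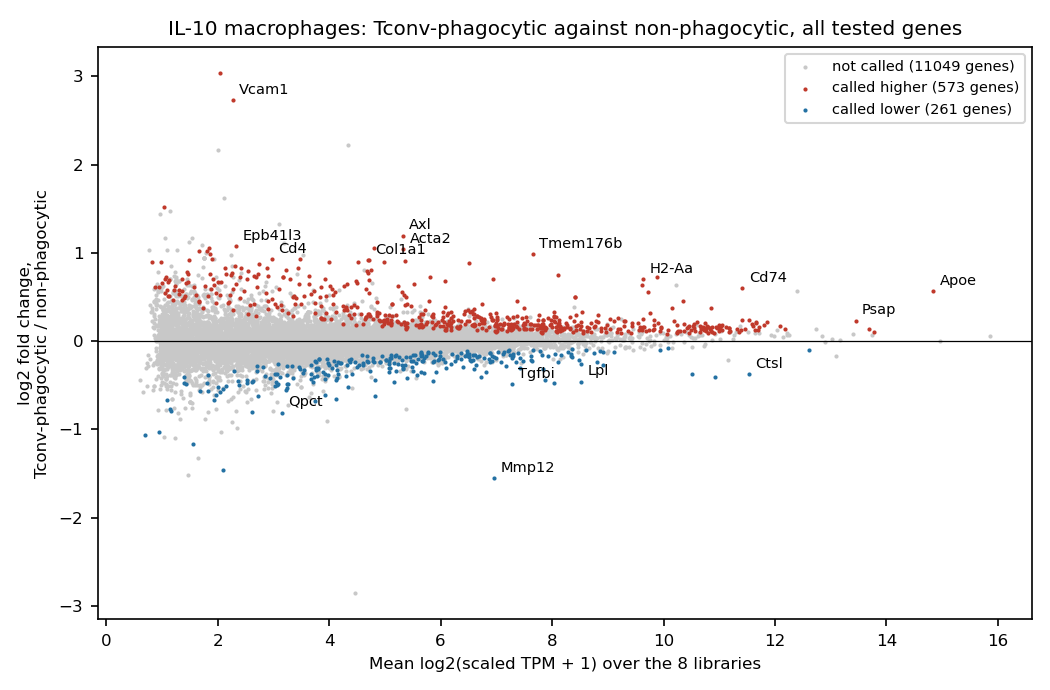
All 11883 tested genes, with the mean log2(scaled TPM + 1) over the 8 libraries on the x axis and the log2 fold change of Tconv-phagocytic over non-phagocytic libraries on the y axis. Each point is a gene, 573 called higher in red and 261 called lower in blue. Most called genes lie within 1 of 0, with Vcam1 at 2.73 and Mmp12 at -1.55 far from the rest, and a clone-named gene above Vcam1 falls outside the rule for named genes.

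Vcam1, the adhesion molecule that binds the integrin VLA-4 on leukocytes, showed the largest rise of the named genes. It lies on the minus strand of chr3:116109949-116129688 (mm10). Its level was 0.94, 1.08, 0.79 and 0.78 TPM in non-phagocytic libraries 1 to 4. With uptake it was 11.2 TPM in BV421-1, 12.1 in BV421-2, 12.8 in Ax647-1 and 8.63 in Ax647-2. The groups did not overlap, and the lowest Tconv-phagocytic library lay well above every non-phagocytic one. Separate groups were a condition of the rule for named genes. For Vcam1, Axl, Mmp12, Tmem176b, Tgfbi, Acta2, Col1a1 and Cd4, chosen by that rule, the lack of overlap is therefore no further evidence. The fitted rise was 6.62-fold (log2 2.73, SE 0.12, adjusted p = 3.03e-06). The size rests on the constant added to low values: the log2 rise was 3.57 with 0.1 TPM added and 1.48 with 5 TPM, and it was called with each. It was 2.80 on the log2 scale with the BV421 libraries alone and 2.67 with the Ax647 libraries alone. Of the 20 tested adhesion genes, Vcam1 included, 5 rose and 1 fell, with a median of 0.03 against 0.002 for all genes, of which 4.82% rose and 2.2% fell; without scaling 4 of the 20 rose and 6 fell. Pecam1 (CD31) rose from 2.11 ± 0.16 to 3.66 ± 0.54 TPM (SD, n = 4 each, log2 0.64, adjusted p = 0.0082). Siglec1 (a sialic acid receptor of macrophages) rose by 0.24, while Itgax (CD11c) fell by 0.42.

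Receptors and bridging proteins for apoptotic cells showed unequal changes. Of the 28 tested genes of that list, 9 rose and 2 fell (median 0.06), against 4.82% and 2.2% of all genes. Without scaling 5 rose and 3 fell. Axl, a TAM receptor on the minus strand of chr7:25757273-25788705, was 22.5, 25.5, 25.5 and 31.4 TPM in the non-phagocytic libraries. In the Tconv-phagocytic libraries it was 53.8 (BV421-1), 57.3 (BV421-2), 65.3 (Ax647-1) and 55.2 TPM (Ax647-2). The groups were well apart, and the rise was 2.29-fold (log2 1.19, SE 0.10, adjusted p = 0.00013). Mertk, the other main TAM receptor of macrophages, rose less, from 23 ± 1.07 to 27.1 ± 1.21 TPM (SD, n = 4 each, log2 0.30, adjusted p = 0.0075). Gas6, the ligand that bridges both to phosphatidylserine, rose from 249 ± 5.21 to 286 ± 8.19 TPM (log2 0.27, adjusted p = 0.00061). The complement C1q chains, which coat apoptotic cells, all rose: C1qa by 0.32, C1qb by 0.24 and C1qc by 0.16. The rises of C1qc and of Stab1, a phosphatidylserine receptor (0.20), were not called without scaling or with the Ax647 libraries alone. Itgb3, the β chain of the integrin that binds MFG-E8, rose by 0.47 from under 1 TPM on average, a call lost without 7 of the 8 libraries left out singly.

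Mfge8, which encodes the bridging protein MFG-E8, moved the other way. It was 327, 312, 312 and 319 TPM without uptake and 221 (BV421-1), 216 (BV421-2), 205 (Ax647-1) and 225 TPM (Ax647-2) with it. Every Tconv-phagocytic library was lower than every non-phagocytic one (log2 -0.47, SE 0.03, adjusted p = 4.84e-05). Cd36, a scavenger receptor for oxidized lipids and apoptotic cells, fell by 0.28, from 163 ± 9.88 to 127 ± 7.75 TPM (SD, n = 4 each, adjusted p = 0.015).

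**Figure D2:**
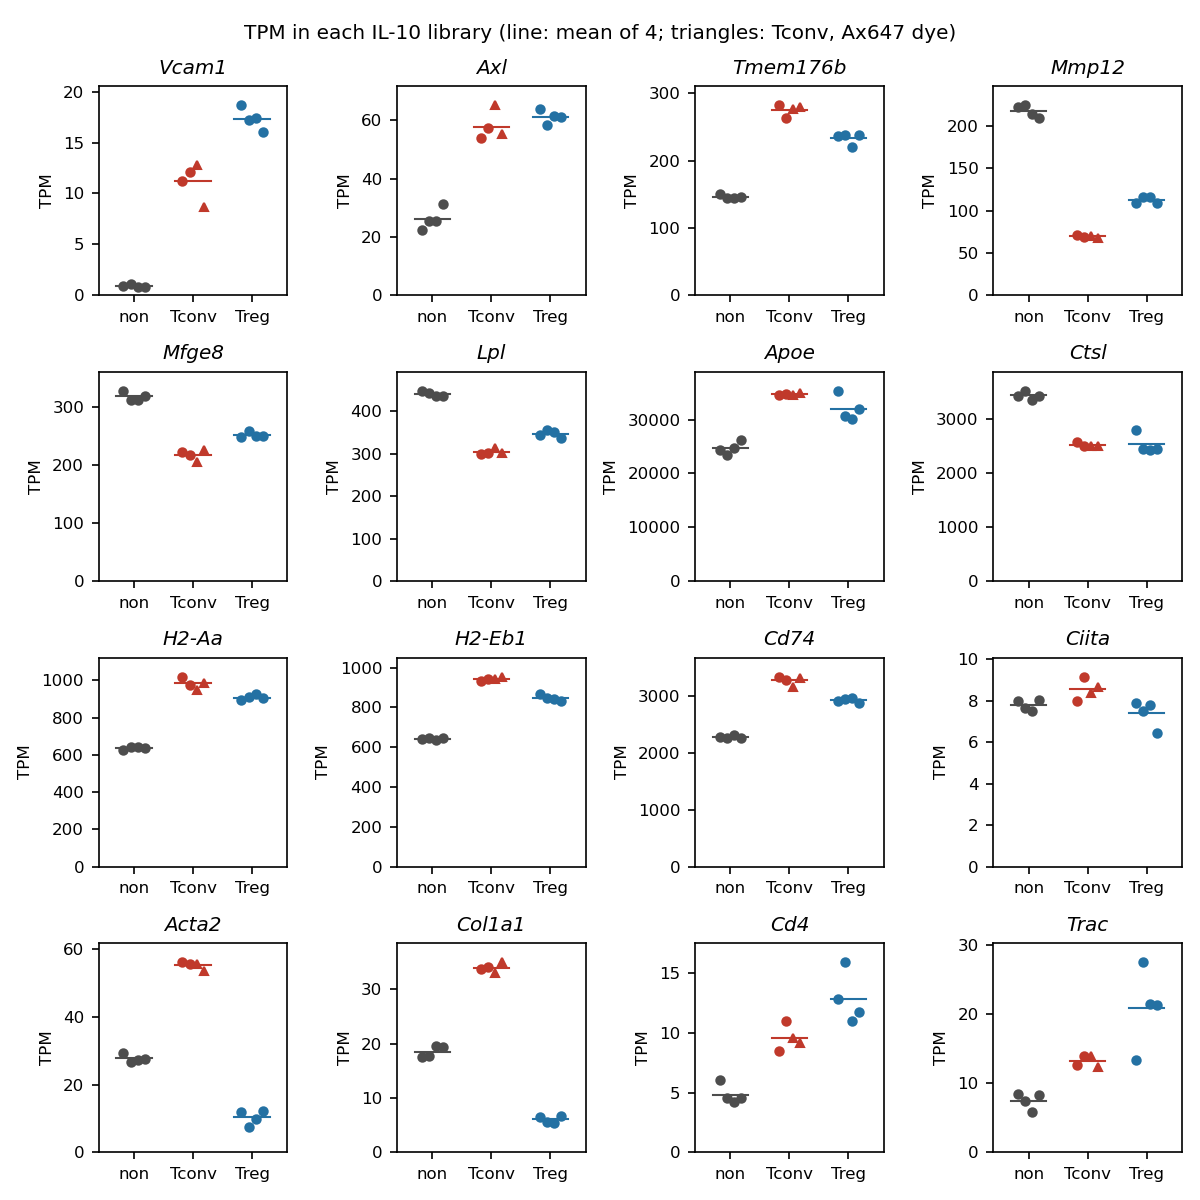
TPM in each IL-10 library (y axes, linear from 0) for 16 genes, with non-phagocytic, Tconv-phagocytic and Treg-phagocytic libraries along the x axis. Points are libraries, triangles are Tconv libraries with the Ax647 dye, and lines are means of 4. Non-phagocytic and Tconv-phagocytic points do not overlap in any panel except that of Ciita.

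The most abundant transcript of the lipid handling genes was that of Apoe, the apolipoprotein that carries cholesterol out of macrophages. The gene lies at chr7:19696109-19699188 on the minus strand. Apoe was 24456, 23497, 24833 and 26181 TPM in the non-phagocytic libraries and 34657 (BV421-1), 34829 (BV421-2), 34601 (Ax647-1) and 34957 TPM (Ax647-2) with uptake. It thus took 2.47% ± 0.11 of all TPM without uptake and 3.48% ± 0.02 with it (SD, n = 4 each). Its rise was 1.48-fold (log2 0.57, SE 0.03, adjusted p = 6.8e-06). Of 23 tested genes of the LXR and sterol efflux list, 8 rose and 1 fell (median 0.12), against 4.82% and 2.2% of all genes. Without scaling 4 rose and 3 fell. Apoc2, which activates lipoprotein lipase, rose by 0.32, Lipa, the lysosomal acid lipase, by 0.22, and Pltp, a phospholipid transfer protein, by 0.14. Apoc1 rose from 1.68 ± 0.97 to 4.15 ± 0.94 TPM (SD, n = 4 each, log2 1.06, adjusted p = 0.040), and its call too was lost without 7 single libraries. Abca1 (log2 0.12, adjusted p = 0.19) and Abcg1 (-0.002, adjusted p = 0.99), the cholesterol exporters under LXR, did not pass the test.

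Lpl, the lipoprotein lipase, fell. It was 448, 443, 436 and 436 TPM without uptake and 299 (BV421-1), 302 (BV421-2), 312 (Ax647-1) and 302 TPM (Ax647-2) with it. The groups were far apart compared with their spread (log2 -0.46, SE 0.02, adjusted p = 5.31e-06). None of the 24 tested genes of cholesterol synthesis passed the test in limma (median -0.03; 2 fell without scaling).

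More lysosomal genes rose than fell, by small amounts. Of 50 tested, 16 rose and 3 fell, with a median of 0.09, against 4.82% and 2.2% of all genes, and without scaling 8 rose and 5 fell. Psap, the precursor of the saposins that help degrade sphingolipids, was among the most abundant transcripts and rose from 10570 ± 136 to 11760 ± 167 TPM (SD, n = 4 each, log2 0.23, adjusted p = 7.95e-05). Pla2g15, the lysosomal phospholipase, rose by 0.26, Ctsz (cathepsin Z) by 0.20, Hexa (a hexosaminidase chain) by 0.18 and Lamp1 (a lysosomal membrane protein) by 0.17. The 3 that fell were Ctsl, Ctsk and Gpnmb. Ctsl, which encodes cathepsin L, was 3441, 3533, 3370 and 3439 TPM without uptake and 2578 (BV421-1), 2501 (BV421-2), 2509 (Ax647-1) and 2515 TPM (Ax647-2) with it. No library of one group reached the other (log2 -0.37, SE 0.02, adjusted p = 8.8e-06). Ctsk (cathepsin K) fell by 0.25 and Gpnmb, a glycoprotein of lysosome-rich macrophages, by 0.10.

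The MHC class II pathway was raised at its peptide-binding chains, its chaperone and its editing factor. Peptides from engulfed proteins are loaded onto class II chains (H2-Aa, H2-Ab1, H2-Eb1) that travel with the invariant chain Cd74 and are edited by H2-DM, and transcription of these genes depends on the coactivator Ciita. Of 13 tested genes of the list, 8 rose and 0 fell (median 0.18), against 4.82% and 2.2% of all genes. Without scaling 7 rose and 1 fell. Class II promoters share a set of short elements, of which the Y box (letters CTGATTGG, bound by NF-Y) is the simplest to find. The 250 bases before the start of 2 of the raised genes are shown with that element in capitals, 5′ to 3′ on the strand of the gene, from RefSeq (GRCm38.p6). H2-Aa is at chr17:34287824-34288073 on the minus strand and H2-Eb1 at chr17:34305617-34305866 on the plus strand.
H2-Aa: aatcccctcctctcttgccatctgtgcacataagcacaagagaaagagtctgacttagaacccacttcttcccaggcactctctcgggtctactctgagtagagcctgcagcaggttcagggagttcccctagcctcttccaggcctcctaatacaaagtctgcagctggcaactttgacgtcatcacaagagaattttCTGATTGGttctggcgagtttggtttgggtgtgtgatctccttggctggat
H2-Eb1: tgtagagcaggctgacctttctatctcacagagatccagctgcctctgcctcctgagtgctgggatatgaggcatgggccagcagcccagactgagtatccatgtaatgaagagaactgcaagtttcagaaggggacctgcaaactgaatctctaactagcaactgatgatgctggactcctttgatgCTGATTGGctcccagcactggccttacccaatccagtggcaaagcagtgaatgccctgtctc
The element begins 51 bases before the start of H2-Aa and 62 bases before that of H2-Eb1. Of the 15 list members, 10 had a promoter window in the RefSeq table, and 3 of these (H2-Aa, H2-Eb1 and H2-Oa) held the element on either strand. Of all 32851 windows of this length, 3.83% held it. The matches are descriptions of sequence, and binding was not measured here.

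H2-Aa was 626, 642, 643 and 637 TPM in the non-phagocytic libraries and 1020 (BV421-1), 977 (BV421-2), 947 (Ax647-1) and 987 TPM (Ax647-2) with uptake. The groups were separated by many times their spread (1.63-fold, log2 0.70, SE 0.03, adjusted p = 5.99e-07). H2-Eb1 was 640, 645, 634 and 645 TPM without uptake and 931 (BV421-1), 945 (BV421-2), 943 (Ax647-1) and 955 TPM (Ax647-2) with it (log2 0.63, SE 0.02, adjusted p = 1.04e-07). Cd74 was 2271, 2258, 2308 and 2270 TPM without uptake and 3342 (BV421-1), 3280 (BV421-2), 3152 (Ax647-1) and 3318 TPM (Ax647-2) with it (log2 0.60, SE 0.02, adjusted p = 5.99e-07). In each of these genes all 4 libraries with uptake exceeded all 4 without. H2-Ab1 rose by 0.55 (SE 0.03, adjusted p = 1.25e-05). The later steps rose less: H2-DMa by 0.34, H2-DMb1 by 0.18, Ifi30 (a thiol reductase of the endosome) by 0.18 and Lgmn (legumain, an asparagine endopeptidase) by 0.18. Ifi30 lost its call without scaling and without 4 of the 8 single libraries. Ciita, the coactivator, was 7.99, 7.63, 7.52 and 8.02 TPM without uptake and 7.99 (BV421-1), 9.16 (BV421-2), 8.36 (Ax647-1) and 8.67 TPM (Ax647-2) with it. The groups overlapped, and the test was not passed (log2 0.19, 95% confidence interval 0.04 to 0.33, adjusted p = 0.13).

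Some other antigen presentation genes rose by small amounts. Of 21 class I genes 6 rose and 0 fell (median 0.08), against 4.82% and 2.2% of all genes, and without scaling 2 rose and 1 fell. B2m, the light chain of class I, rose by 0.20. H2-Q7 rose by 0.36, but it has close relatives among the class I genes, so reads may be split between them. None of the 16 tested genes for costimulation and checkpoints passed in limma (median 0.04), with 1 lower without scaling. Of 22 IFN-γ response genes 2 rose, among them Gbp4 by 0.69, from 0.74 ± 0.09 to 1.78 ± 0.61 TPM (SD, n = 4 each), and Gbp4 lost the call without 7 of the 8 libraries, left out singly. Of 27 type I interferon genes 2 were called, a share near the 7.02% of all genes: Bst2 rose by 0.17 and Stat2 fell by 0.16, the latter no longer called without any 1 of the 8.

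The largest fall of the named genes was in Mmp12, the macrophage elastase, at chr9:7344381-7369499 on the plus strand. It was 222, 225, 214 and 209 TPM in the non-phagocytic libraries. With uptake it was 71.7 (BV421-1), 68.8 (BV421-2), 70.5 (Ax647-1) and 67.8 TPM (Ax647-2). The groups did not come near each other, and both dyes gave the same size of change (log2 -1.54 with BV421 and -1.56 with Ax647; -1.55 with both, SE 0.03, adjusted p = 1.7e-08). The metalloproteinase list did not move as a block: 3 of 13 rose and 3 fell, against 4.82% and 2.2% of all genes. Mmp13 (a collagenase) fell by 0.67 and Mmp8 (the neutrophil collagenase) by 0.38. Mmp14, the membrane-bound collagenase, rose by 0.72, from 44.1 ± 3.02 to 69.4 ± 2.01 TPM (SD, n = 4 each, adjusted p = 4.84e-05). Mmp2 (a gelatinase) rose by 0.67 and Timp3, an inhibitor bound to matrix, by 0.92, both from levels near 2 TPM.

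The other 11 falls chosen by the rule for named genes were smaller. Qpct, a glutaminyl cyclase that modifies secreted peptides, fell from 11.1 ± 0.90 to 5.65 ± 1.05 TPM (SD, n = 4 each, log2 -0.81, adjusted p = 0.0028). Tgfbi, a secreted matrix protein, fell from 187 ± 1.48 to 126 ± 4.23 TPM (log2 -0.49, adjusted p = 1.93e-05), with the groups far apart. Cav1, the coat protein of caveolae, fell by 0.68, Cdkn1c, an inhibitor of cyclin-dependent kinases, by 0.66 and Gnb4, a G protein β chain, by 0.63. Golga1, a Golgi coiled-coil protein, fell by 0.55, Vwf (von Willebrand factor) by 0.52 and Dhrs9, a retinol dehydrogenase, by 0.51. Tarm1, an activating receptor of myeloid cells, and Dpep3, a dipeptidase, each fell by 0.50. Hist1h2ap, a histone gene with near-identical copies, fell by 0.62. Of these, Cdkn1c and Gnb4 lost their call without 6 of the 8 single libraries and Vwf without 5.

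Among the other rises, Tmem176b, a membrane protein of myeloid cells, was 150, 145, 144 and 145 TPM without uptake and 282 (BV421-1), 263 (BV421-2), 277 (Ax647-1) and 280 TPM (Ax647-2) with it. All 4 libraries with uptake lay far above the others (log2 0.99, SE 0.03, adjusted p = 1.17e-07). Its neighbour Tmem176a rose by 0.88. The genes (chr6:48833818-48841496, minus strand, and chr6:48840919-48847071, plus strand) overlap at their starts, so reads there could be assigned to either. Epb41l3, a linker of membrane and cytoskeleton, rose from 2.53 ± 0.21 to 6.22 ± 1.24 TPM (SD, n = 4 each, log2 1.08, adjusted p = 0.001). F13a1, the transglutaminase that cross-links fibrin, rose from 29.7 ± 2.23 to 53.5 ± 2.88 TPM (log2 0.91, adjusted p = 4.06e-05). Ppbp, a chemokine best known from platelets, rose from 18.9 ± 1.61 to 38.3 ± 4.22 TPM (log2 1.05, adjusted p = 0.00015).

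Secreted signals rose in part. Over all genes 4.82% rose and 2.2% fell. Of 16 tested chemokine genes 6 rose and 2 fell (median 0.25). Ccl8, a monocyte attractant, rose by 0.90, Ccl5 by 0.62, Ccl3 by 0.30 and Pf4, another platelet-type chemokine, by 0.37 from 1030 ± 24.3 TPM (SD, n = 4). The receptor Ccr2 rose by 0.42, while Ccr1 fell by 0.26 and Cxcl2, a neutrophil attractant, by 0.35. Ccr1 was no longer called when any of 5 single libraries was left out, and Cxcl2 when any of 7 was. Of 12 inflammatory cytokines 3 rose: Csf1, the macrophage growth factor, by 0.73, Tnf by 0.52 and Il1b by 0.42, of which Tnf lost its call without any 1 of the 8 libraries. Of 24 genes of the IL-10 response and alternative activation 4 rose and 2 fell (median 0.02), and without scaling 2 rose and 5 fell. Socs3, a direct target of STAT3, was 168 ± 4.58 TPM without and 166 ± 3.97 TPM with uptake (SD, n = 4 each, adjusted p = 0.35). Its co-targets Bcl3 and Sbno2, the 2 falls of the list, fell by 0.26 and 0.19, and these calls were lost without 5 and 3 of the single libraries. Among the 4 rises were Hmox1 (0.22), the receptor chain Il10rb and Arg2. Il10rb lost its call without scaling, and Arg2 without 4 of the single libraries.

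Genes of iron and heme handling rose in 5 of 13 cases, with 0 falling, also without scaling. Slc40a1, the iron exporter ferroportin, rose from 10.2 ± 0.29 to 14.8 ± 1.19 TPM (SD, n = 4 each, log2 0.57, adjusted p = 0.001). Spic, a transcription factor of iron-recycling macrophages, rose from 1.07 ± 0.35 to 2.79 ± 0.59 TPM (log2 0.92, adjusted p = 0.0089). Hmox1 (heme oxygenase) rose by 0.22, Ncoa4 (the ferritin receptor of autophagy) by 0.41 and Blvra (biliverdin reductase) by 0.28. Among 26 cell cycle genes 1 rose and 1 fell, a share near the 7.02% of all genes. Of 13 mitochondrially encoded genes only mt-Atp6 passed, at 0.72 higher, and nuclear copies of mitochondrial genes may share its reads. Of 21 genes for degrading and sensing nucleic acid 3 rose, and without scaling 1 rose. Of 11 scavenger receptors 3 rose and 1 fell, which turned to 1 and 2 without scaling, and of 18 immediate early genes 1 rose and 2 fell (1 and 3 without scaling). Over all genes 4.82% rose and 2.2% fell.

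**Figure D3:**
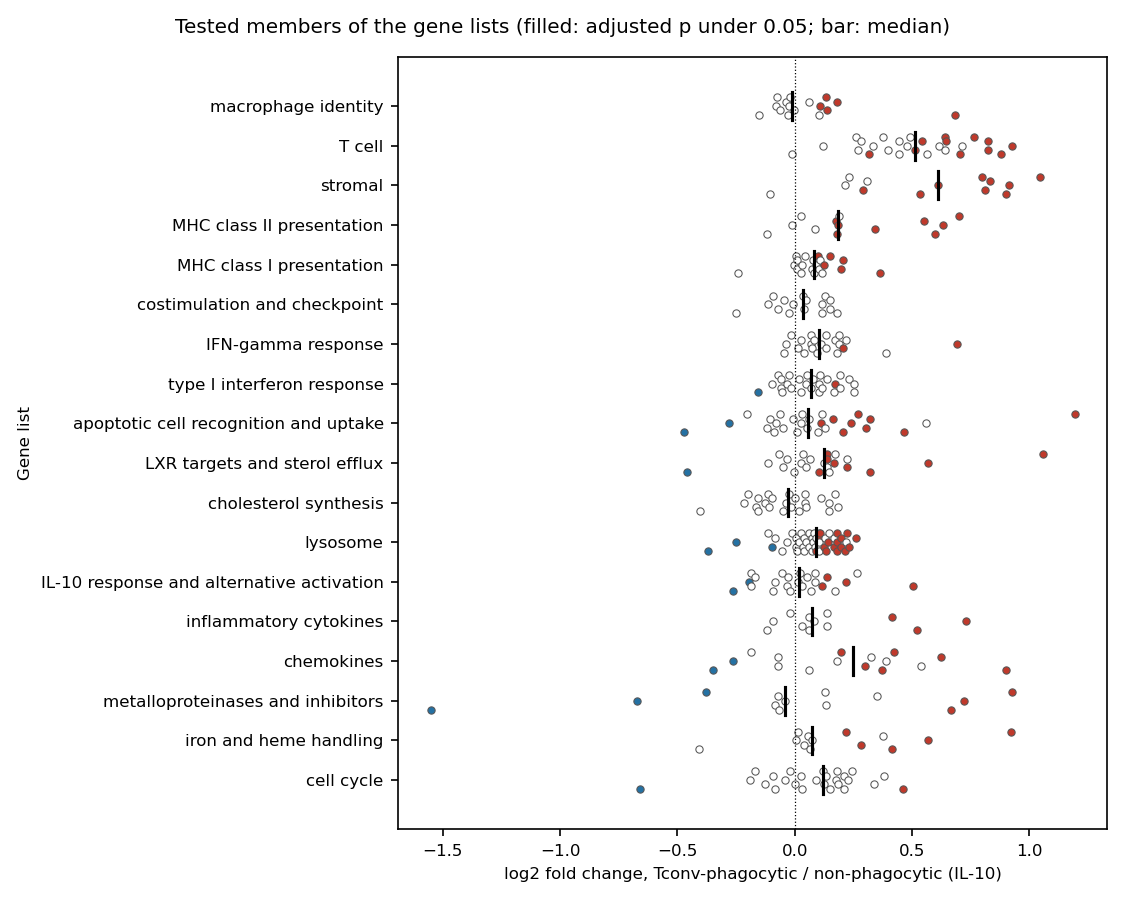
Log2 fold change of Tconv-phagocytic over non-phagocytic libraries (x axis) for each tested member of 18 gene lists (y axis). Points are genes, filled where the adjusted p was under 0.05, and bars are list medians. The T cell and stromal lists lie furthest to the right with medians of 0.51 and 0.61, and metalloproteinases spread from -1.55 to 0.92.

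Many T cell and stromal transcripts were higher with uptake, and the lists of other cell types than macrophages held fewer calls. In bulk libraries, more cells of a type and more RNA per cell cannot be told apart, nor can RNA of engulfed T cells and RNA of T cells attached to a macrophage. Of 27 tested T cell genes 11 rose and 0 fell (median 0.51), against 4.82% and 2.2% of all genes. The summed level of the 30 list genes was 225 to 247 TPM in the non-phagocytic and 270 to 331 TPM in the Tconv-phagocytic libraries. It was 384 to 424 TPM in the IL-10 Treg-phagocytic libraries. In M0 it was 237 to 381 TPM, in IFN-γ non-phagocytic libraries 825 to 1350 TPM and in IFN-γ Tconv-phagocytic libraries 991 to 1209 TPM. A large part of the sums of the 8 libraries was Il7r, with a mean log2(scaled TPM + 1) of 6.56. Il7r did not pass in limma (log2 -0.01, adjusted p = 0.90). Cd4, the coreceptor against which the label antibody was directed, was 6.05, 4.52, 4.21 and 4.59 TPM without uptake and 8.50 (BV421-1), 10.98 (BV421-2), 9.57 (Ax647-1) and 9.17 TPM (Ax647-2) with it (log2 0.92, SE 0.11, adjusted p = 0.0013). The T cell receptor α constant gene Trac was 8.43, 7.45, 5.78 and 8.23 TPM without uptake and 12.6 (BV421-1), 14.0 (BV421-2), 13.9 (Ax647-1) and 12.3 TPM (Ax647-2) with it (log2 0.82, SE 0.11, adjusted p = 0.0018). Both genes were higher in every library with uptake, but the non-phagocytic libraries also held both. Tcf7, a transcription factor of naive T cells, rose by 0.88. The CD3 chains Cd3e (log2 0.28, adjusted p = 0.34), Cd3d (0.27, adjusted p = 0.51) and Cd3g (0.61, adjusted p = 0.061) did not pass. Nor did the kinase Lck (0.26, adjusted p = 0.42). Cd3d passed in limma under 1 of the 20 alternative settings (adjusted p = 0.035), and its level in non-phagocytic library 1 was high (8.05 TPM). Foxp3, the regulatory T cell factor, was 3.18 ± 1.38 TPM without and 3.23 ± 0.38 TPM with uptake (SD, n = 4 each, adjusted p = 0.78). Of 12 genes of CD8 T and NK cells none reached the filter, and of 4 tested B and plasma cell genes 2 rose. Of 9 tested Treg genes 1 rose, and of 7 neutrophil genes 1 rose and 1 fell. Of 5 dendritic cell genes 1 fell (Itgax), and neither of the 2 tested erythroid genes passed. These short lists hold too few genes to set their counts against the shares of all genes.

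Stromal transcripts formed the other such group. Of 13 tested genes 9 rose and 0 fell (median 0.61), and without scaling 9 rose and 1 fell. Their summed level was 574 to 589 TPM in the non-phagocytic and 729 to 747 TPM in the Tconv-phagocytic libraries, against 434 to 438 TPM in the Treg-phagocytic ones. Lum was at 0 in all 8 libraries. Acta2, the actin of smooth muscle and myofibroblasts, was 29.5, 26.8, 27.3 and 27.7 TPM without uptake and 56.2 (BV421-1), 55.7 (BV421-2), 55.7 (Ax647-1) and 53.8 TPM (Ax647-2) with it (log2 1.04, SE 0.04, adjusted p = 8.3e-07). Col1a1, a chain of collagen I, was 17.5, 17.8, 19.5 and 19.4 TPM without uptake and 33.7 (BV421-1), 34.1 (BV421-2), 33.1 (Ax647-1) and 35 TPM (Ax647-2) with it (log2 0.91, SE 0.05, adjusted p = 9.52e-06). Within each group these genes varied little, and the groups were far apart. Ccn2, a matricellular growth factor, and Serpinf1, a secreted serpin, rose by 0.92 and 0.93. The part of T cell and stromal RNA in the other differences was not tested. Of the macrophage list 5 of 16 rose and 0 fell (median -0.01), against 4.82% and 2.2% of all genes, led by Aif1 (the actin-binding protein Iba1) at 0.68, while without scaling 2 rose and 5 fell.

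The dye of the antibody did not separate the Tconv-phagocytic libraries. Between BV421 and Ax647, 0 of 11883 genes passed in limma (0%), and 465 had an unadjusted p under 0.05. With no filter on low values, 25 of 23539 passed. With 2 libraries a side, small dye effects were not detectable.

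The kind of T cell engulfed was compared next, Treg-phagocytic against Tconv-phagocytic under IL-10. Of 11870 genes 201 passed (1.69%), 83 higher (0.699%) and 118 lower (0.994%) with Treg cells. The falls were led by stromal genes: all 13 tested were lower (median -1.73), with Acta2 at 10.4 ± 2.18 TPM (SD, n = 4; log2 -2.33, adjusted p = 9.75e-06) and Col1a1 at 6.09 ± 0.63 TPM (SD, n = 4; log2 -2.30, adjusted p = 2.32e-07). Col1a2 was at -2.17 on the log2 scale, and Csf1 at -1.35. The rises were led by immunoglobulin genes: Igkv15-103, Igkv16-104 and Ighv7-1 were at or near 0 in the Tconv-phagocytic libraries, and Igkc was 11.6 ± 3.11 TPM in them against 29.6 ± 3.83 TPM with Treg cells (SD, n = 4 each, log2 1.32, adjusted p = 0.0053). Vcam1 was higher still with Treg cells, at 17.4 ± 1.095 TPM (SD, n = 4; log2 0.61, adjusted p = 0.025). Mmp12 was less low, at 112 ± 4.30 TPM (SD, n = 4; log2 0.69, adjusted p = 9.75e-06). Axl did not pass (log2 0.09, 95% confidence interval -0.05 to 0.23, adjusted p = 0.57). Of the class II genes 3 of 14 were lower with Treg cells and 0 higher, among them H2-Eb1 (-0.15) and Cd74 (-0.16). Lpl and Mfge8 were higher by 0.20 and 0.22. Of 28 tested T cell genes 4 were higher with Treg cells and 0 lower, against 0.699% and 0.994% of all genes.

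The last question was whether Tconv uptake went with the same differences under IFN-γ. In a fit of 16 libraries the uptake effect under IL-10 minus that under IFN-γ passed for 234 of 13075 genes (1.79%), 205 positive (1.57%) and 29 negative (0.222%). Without scaling 121 passed, 35.5% of them positive against 87.6%. IFN-γ libraries had fewer genes above 0 (15376 to 16295 in the 8 used) and a larger spread: the median SD of a gene was 0.19 without and 0.18 with uptake, against 0.085 and 0.082 under IL-10 (log2). In the IFN-γ libraries alone 0 of 12134 genes passed in limma and 787 had an unadjusted p under 0.05, so that count is no measure of a weaker effect.

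Axl went from 45.2 ± 7.001 TPM without to 39.3 ± 4.15 TPM with uptake under IFN-γ (SD, n = 4 each), and the difference of effects was 1.43 (SE 0.16, adjusted p = 0.00025). Vcam1 went from 4.36 ± 1.24 to 6.48 ± 2.73 TPM there (SD, n = 4 each), with a difference of 2.28 (SE 0.34, adjusted p = 0.0024). Mmp12 went from 181 ± 10.2 to 163 ± 19.3 TPM (SD, n = 4 each), with a difference of -1.34 (SE 0.10, adjusted p = 3.13e-06). Apoe differed by 0.56 (adjusted p = 3.13e-06), Lpl by -0.37 and Ctsl by -0.27. Of 15 class II genes 7 had a larger uptake effect under IL-10 and 0 a smaller one, among them H2-Aa (0.85) and Cd74 (0.76); without scaling the count was 4, with the BV421 libraries alone 2 and with Ax647 alone 5. Of the stromal genes 5 of 13 had a larger effect under IL-10, and Col1a1 was under 1 TPM on average in both IFN-γ groups. The other genes named by the rule for this difference were Sparc (2.36), Ppbp (1.97) and Bgn (1.74) on the positive side and Ramp3 (-1.38), Rassf7 (-1.16) and Unkl (-1.12) on the negative side.

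**Figure D4:**
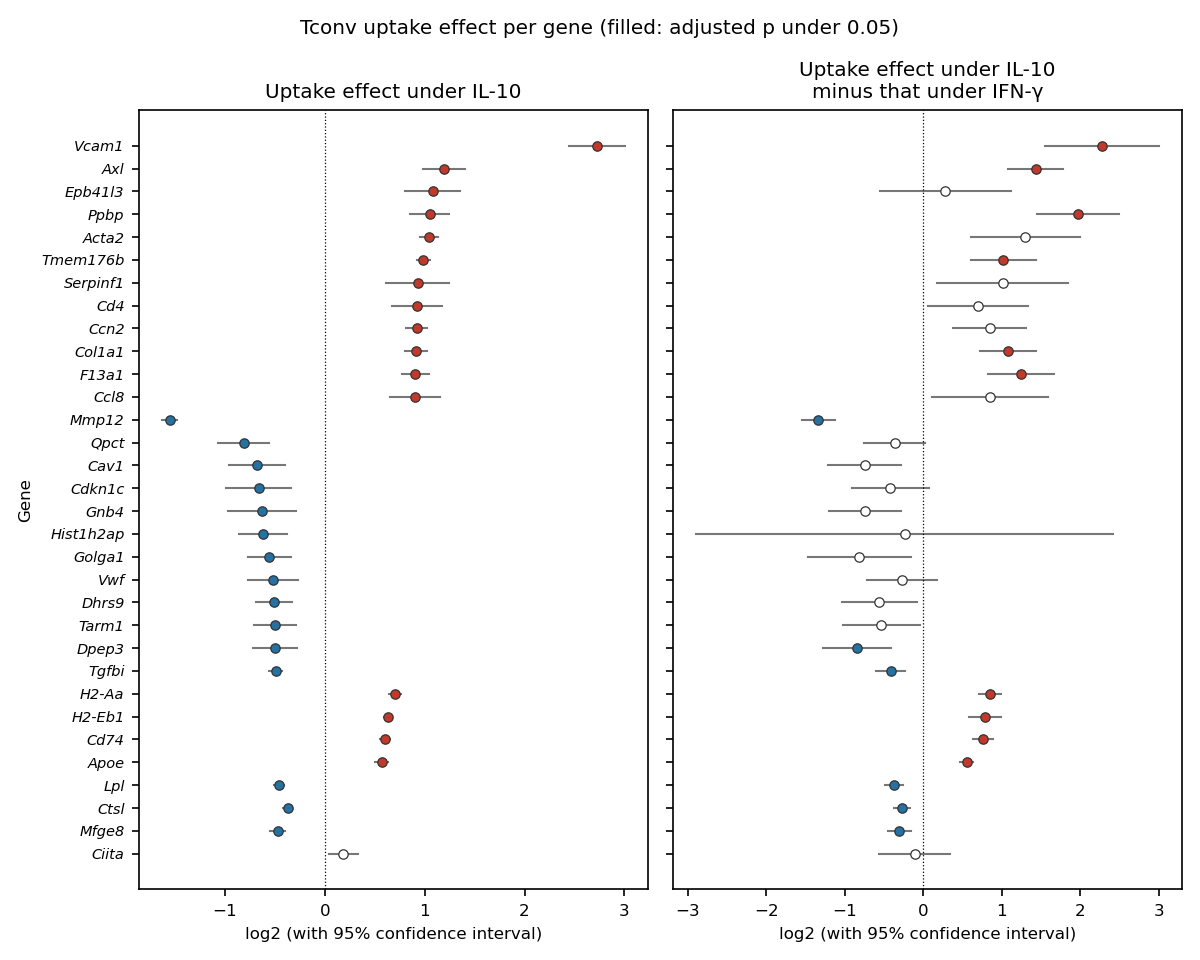
Left, log2 uptake effect under IL-10 (x axis, with 95% confidence interval) for the 24 genes of the naming rule and 8 further genes (y axis). Right, the same effect minus that under IFN-γ. Filled points had an adjusted p under 0.05. Vcam1, Axl and Mmp12 are filled on both sides, whereas Epb41l3 and Qpct are filled only on the left.

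Across all 7 groups, the order of levels differed between genes. Vcam1 was lowest in IL-10 non-phagocytic (0.90 ± 0.14 TPM) and M0 macrophages (1.11 ± 0.30 TPM), whose ranges overlap. Axl was lowest in IL-10 non-phagocytic macrophages, and its level with Tconv uptake (57.9 ± 5.12 TPM) overlapped with that in M0 (50.7 ± 6.42 TPM). Mmp12 was highest in M0 at 844 ± 27.1 TPM and lowest with Tconv uptake under IL-10 at 69.7 ± 1.73 TPM. H2-Aa with Tconv uptake under IL-10 (983 ± 30.1 TPM) stayed below IFN-γ non-phagocytic macrophages (1337 ± 55.3 TPM). All are SD with n = 4 and are given as levels, without a test between cytokines.

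**Figure D5:**
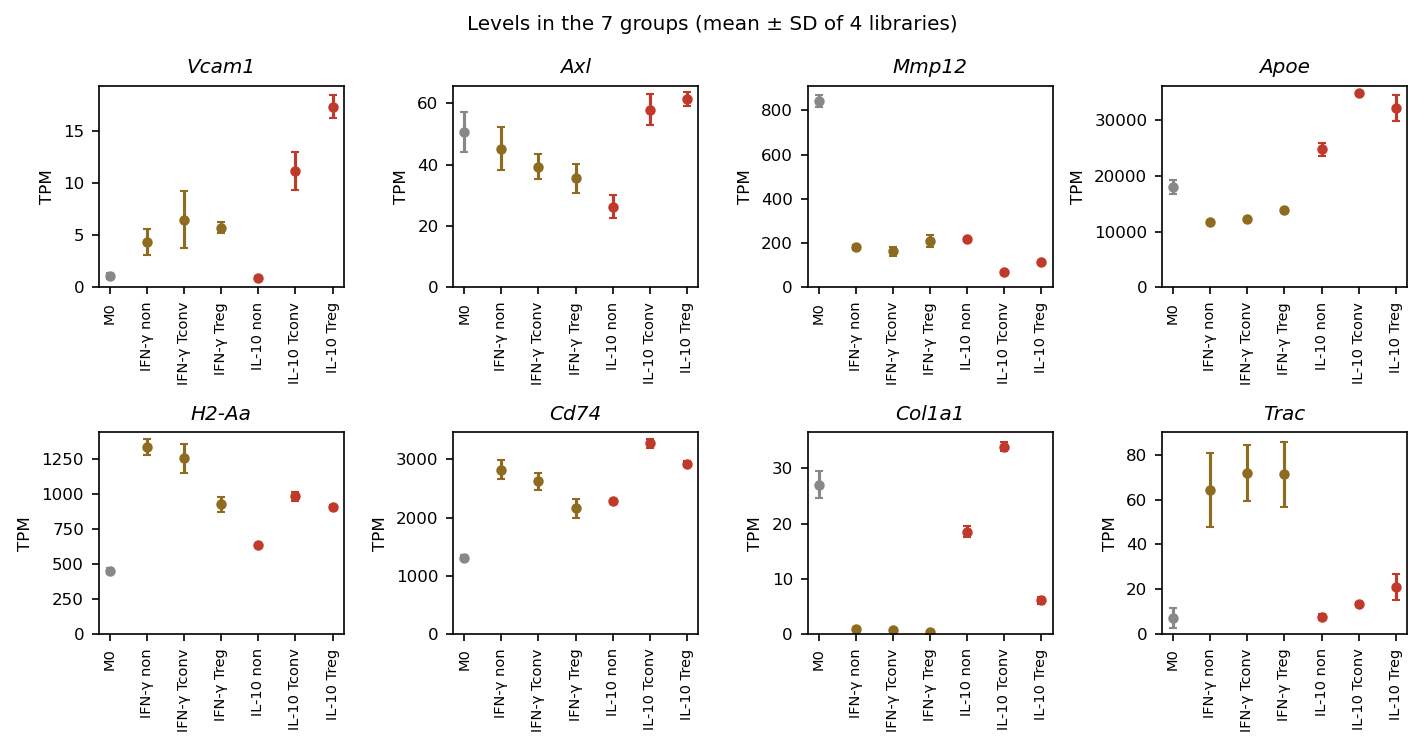
Mean TPM ± SD of 4 libraries (y axes, linear from 0) of 8 genes in the 7 groups (x axes), with M0 in grey, IFN-γ in brown and IL-10 in red. Within IL-10, Vcam1, Axl, Apoe, H2-Aa and Cd74 are higher in both phagocytic groups than in the non-phagocytic one, Mmp12 is lower in both, and Col1a1 is high with Tconv and low with Treg cells.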

How the data were processed

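RNA-seq libraries of mouse bone marrow derived macrophages were analysed, 8 in the main comparison and 28 in all. Total RNA was obtained by the authors with RNAiso PLUS, per the labels' protocols, cleaned on columns and turned into strand-specific poly(A) libraries. Per the submitters' processing notes, STAR, RSEM and mm10 were used; versions and settings are not given in the sources used here. The deposited values are TPM, per the file headers, for 55487 Ensembl gene IDs, of which 55141 matched a symbol. Of 378 library pairs, 0 held identical values.

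The fixed test was limma 3.58.1 (R 4.3.3) with a mean-variance trend on log2(scaled TPM + 1), computed here from the deposited TPM. Scaling was a trimmed mean of log2 ratios (30% of ratios trimmed at each end, 5% of levels). A gene entered a fit if 4 or more libraries had 1 TPM or more, and calls were made at a Benjamini-Hochberg adjusted p under 0.05. Each fit held only the groups compared: 8 libraries, or 16 for the difference between cytokines. Coordinates came from GENCODE vM21. The fit was first tested on simulated data with 200 of 11883 genes changed. At a log2 change of 0.3 it called 64 of the 200, at 0.5 it called 143 and at 1 it called 183. It also called 2, 12 and 5 unchanged genes. A gene that did not pass may thus still differ by 0.3, and less often by 0.5 or 1.

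The genes named were the 12 largest rises and 12 largest falls among called genes with separate groups and at least 5 TPM in the higher group (4 each for the other comparisons), without predicted-gene or clone names, plus members of gene lists; some genes so chosen are not reported here. The comparison, the lists and the rule were chosen with earlier results of these data known. Libraries with the same file number did not deviate together, so the numbers were not used as pairs. Alternatives were other scalings, pseudocounts, filters and fits, single dyes and leaving out each library. TPM gives no counts, so precision rests on the spread of 4 libraries a group.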

Additional observations from a re-analysis of the deposited data

Results flagged for a closer look

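The named genes were searched for a single library far from its group, measured by its gap to the nearest library over the group's range. Of 264 groups of 4 libraries, 8 met this; chance gives about 5% of groups. Without uptake, Cd3d was high in library 1 (8.05 TPM), Ncoa4 high in library 2 (104.9 TPM), Tmem176a low in library 3 (55.94 TPM), and H2-Q7 (91.27 TPM) and Psme2 (139.01 TPM) high in library 4. With Tconv uptake, Csf1 was high in BV421-2 (16.26 TPM), and Col3a1 (5.56 TPM) and Cxcl2 (45.16 TPM) were high in Ax647-2.

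The uptake effect differed between IL-10 and IFN-γ, by the test of the difference itself (limma, adjusted p under 0.05), for 43 of 132 named genes, against 1.79% of all genes. Most of the named genes were called under IL-10 itself, and such a choice favours a difference, so the 43 are given as values only. The values are the log2 uptake effect under IL-10 minus that under IFN-γ. The largest positive differences were Sparc 2.36, Vcam1 2.28, Ppbp 1.97, Axl 1.43, Postn 1.28, F13a1 1.25, Col1a1 1.08, Col1a2 1.05 and Tmem176b 1.02. The next were Slc40a1 0.93, H2-Aa 0.85, Aif1 0.85, H2-Eb1 0.79, Cd74 0.76, H2-Ab1 0.72, Mmp14 0.64, Ccl5 0.61 and Apoe 0.56. Smaller ones were Pf4 0.54, Ncoa4 0.49, H2-DMa 0.42, C1qb 0.33, C1qa 0.33, H2-DMb1 0.32, B2m 0.31, Thbs1 0.29 and Tyrobp 0.28. The smallest were Psap 0.28, Ctsz 0.27, Lgmn 0.26, Cd68 0.24, Pltp 0.23, Lamp1 0.23, Hexa 0.22 and Lipa 0.22. Negative differences were Mmp12 -1.34, Dpep3 -0.85, Ccr1 -0.54, Tgfbi -0.41, Sbno2 -0.40, Lpl -0.37, Mfge8 -0.30 and Ctsl -0.27. Without scaling 25 of the 43 were still called, with BV421 libraries alone 9 and with Ax647 alone 26, and 0 changed sign. The IFN-γ libraries had fewer genes above 0 and a larger spread, and the part of this in the differences was not tested.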

How the results depend on the processing

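Calls between Tconv-phagocytic and non-phagocytic libraries numbered 834. Leaving out each library gave 529 to 621, lowest without BV421-2 (529) and without non-phagocytic library 3 (535). BV421 libraries alone gave 249, Ax647 alone 279, one model of all 28 libraries 277, and a minimum log2 change of 1 left 15. A replicate block by file number gave 451 and one by title number 197. Libraries with the same file number correlated at -0.06 to 0.10 in their deviations, and of these only number 4 was nearest to its own; this was not computed for title numbers. For Treg- against Tconv-phagocytic libraries (201), leaving out a library gave 120 to 198 (120 without Ax647-2, 121 without BV421-1 and 127 without the Treg library titled BV421-1), the replicate block 100, all libraries in one model 105 and the minimum change 58. For the difference between cytokines (234), leaving out a library gave 145 to 339, with 145 without BV421-2, 146 without Ax647-1, 151 without Ax647-2 and 148 without non-phagocytic library 3. No scaling gave 121, BV421 alone 15, Ax647 alone 82, the replicate block 114, variance weights 138 and the minimum change 35. With no filter, the dye comparison gave 25 in place of 0. Single dyes and left-out libraries have fewer samples; for the other settings the cause was not tested. Of 119 genes named as called, 94 stayed called without each library in turn, and none of the named genes changed direction while called. Vcam1, Axl, Mmp12, Apoe, H2-Aa, Cd74, Lpl and Mfge8 were called under all 20 alternatives. TPM hides the depth, so what a low gene could have shown is not known.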
